A study of Saccharomyces cerevisiae with 25 samples.

Results

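Baker's yeast, Saccharomyces cerevisiae, carries several mitochondrial proteins as a pair of isoforms, of which 1 is classed as aerobic and 1 as hypoxic from how oxygen and heme act on their genes. The 3 pairs described here are the cytochrome c genes CYC1 and CYC7, the cytochrome c oxidase subunit 5 genes COX5A and COX5B, and the ADP/ATP carrier genes AAC1 and AAC3. These 6 genes, of 6650 named rows in the expression table, were chosen by name, with their levels in these same libraries already known. Their values are therefore given as a description without a test.

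Cytochrome c is the soluble heme protein that carries electrons from the bc1 complex to cytochrome c oxidase, the enzyme that passes them to oxygen. In aerobic cells with heme, the activators Hap1 and Hap2/3/4/5 drive CYC1 and COX5A, and the repressor Rox1, whose own gene needs heme, holds down COX5B, AAC3 and other hypoxic genes. The ADP/ATP carriers exchange ATP made in mitochondria for cytosolic ADP, and the main carrier of growing cells is another gene, PET9 (also called AAC2). CYC7 is known to respond to stress and to loss of glucose repression as well as to oxygen. All this is general background, and whether these regulators, Hap1 among them, act normally in the strain used here was not tested.

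RNA was sequenced from a single time course of a BY4741 derivative, a haploid laboratory strain, that carried a YFP reporter under the PHO84 promoter (pho84pr-YFP) and a DAmP allele of PHO85 (pho85 damp). DAmP alleles lower the amount of a transcript through a change behind its stop codon, and Pho85 is the kinase that keeps the phosphate starvation pathway off. All 25 libraries shared this genotype, so nothing here compares it with normal PHO85. One library came from high phosphate medium at 0 min and 24 from medium without phosphate, 1 every 15 min from 15 to 360 min.

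Each time point was 1 library, so windows of 8 libraries stood in for replicates. Successive samples of 1 time course are not independent replicates, and a trend inside a window enters its mean and spread. The p-values below treat them as independent, so they are not p-values from replicate cultures. The early window ran from 15 to 120 min, the middle one from 135 to 240 min and the late one from 255 to 360 min. Any spread or p-value covers only these libraries, and in such bulk RNA fewer cells of a kind and less RNA per cell cannot be told apart. No library came from cells moved to fresh high phosphate medium, so in every comparison with 0 min loss of phosphate and the handling of the cells cannot be told apart. Levels are RPM, reads per 1000000 reads of the listed genes of a library, and a gene under 10 reads in a library had no value there. The 0 min library held 4954493 reads and 19 libraries without phosphate held 169768 to 1981423. The other 5, at 45, 75, 90, 210 and 330 min, held 766.5 to 81208 reads and were left out of window means, because a library with so few reads lists only high values. That left 5 early, 7 middle and 7 late libraries.

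Several sequences help to follow these genes, all read from the R64 genome and written 5′ to 3′ on the gene's own strand. The first pair shows that the isoforms of cytochrome c can be told apart by their reads. It covers 60 coding bases around the heme attachment site, with the 17 bases that differ between the genes in capitals.
CYC1, chrX:526368-526427, plus strand: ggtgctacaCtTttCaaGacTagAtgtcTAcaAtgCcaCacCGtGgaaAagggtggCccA
CYC7, chrV:79873-79932, minus strand: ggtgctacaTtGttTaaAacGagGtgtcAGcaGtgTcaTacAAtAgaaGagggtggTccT

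Over the aligned coding sequences CYC1 and CYC7 were identical at 77.0% of bases, COX5A and COX5B at 67.5%, AAC1 and AAC3 at 69.6%, and AAC3 and PET9 at 79.1%. The translated proteins were identical at 84.4%, 65.3%, 74.6% and 90.2% of aligned residues. The longest run of identical coding bases was 35 between CYC1 and CYC7, 12 between COX5A and COX5B, 14 between AAC1 and AAC3, and 20 between AAC3 and PET9. The 35-base run is where a short read could come from either cytochrome c gene.
CYC1, chrX:526560-526594, plus strand, and CYC7, chrV:79706-79740, minus strand: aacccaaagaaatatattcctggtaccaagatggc

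Few reads were divided between these genes. Of the 18 libraries that listed both genes, 2 gave reads that were not whole, 117.742 for CYC1 and 40.258 for CYC7 at 150 min and 92.375 and 154.625 at 180 min, and each pair of numbers added up to a whole, 158.0 and 247.0. The fractions of CYC1, 0.742 and 0.375, are those of 1 shared read divided in proportion to each gene's own reads plus 1. None of the values of COX5A, COX5B, AAC1 and AAC3 had fractional reads. In the R64 annotation the 6 genes overlapped no other gene, the closest neighbour lying 179 bases away, and COX5B alone had an intron, of 88 bases after a first coding exon of 1 base.

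The other sequences are 30-base windows around short motifs in the 300 bases before the start codons of COX5B, CYC7 and AAC3. Both strands were searched, and the motif, or its reverse complement, is in capitals. CCCCT, the stress response element bound by Msn2 and Msn4, was found at 2 places each before CYC7 and COX5B and before none of the other 4 genes, against 22.2% of 6001 such regions in the genome with at least 1.
CYC7, 276 bases before the start, chrV:80236-80265, minus strand: agtcccccgccgAGGGGtcttttcccacct
CYC7, 192 bases before the start, chrV:80152-80181, minus strand: taagtggccgcaAGGGGcaaagacaaaggc
COX5B, 178 bases before the start, chrIX:155032-155061, plus strand: aaatgtcatggaCCCCTtaaaattactgag
COX5B, 162 bases before the start, chrIX:155048-155077, plus strand: ttaaaattactgAGGGGttcagaaaatacc

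ATTGTT, the core of the site bound by Rox1, was found at 2 places before COX5B and at 1 before AAC3 and COX5A each, against 34.1% of regions. The last 2 COX5B windows above overlap, and the second of the next 3 windows also holds a CCAAT, the letters bound by Hap2/3/4/5, which 41.8% of regions hold. CCAAT was found at 2 places before COX5B and COX5A each and at 1 before AAC1.
COX5B, 224 bases before the start, chrIX:154986-155015, plus strand: ttttgattttgtATTGTTcgataaggcaac
COX5B, 81 bases before the start, chrIX:155129-155158, plus strand: actgttgcattaAACAATagaccaattatt
AAC3, 194 bases before the start, chrII:415777-415806, plus strand: tttttctttttcATTGTTtggttgccttca

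A match describes letters and does not show that a factor binds there. The longer Rox1 site ATTGTTCTC, which 0.783% of regions hold, and the Pho4 site CACGTG, which 3.57% hold, were before none of the 6 genes.

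Cytochrome c reads were mostly of CYC1 at 0 min and mostly of CYC7 in the late window. At 0 min CYC1 stood at 47.8 RPM and CYC7, the hypoxic isoform, at 8.28 RPM (237 and 41 reads), so that 14.8% of the reads of the pair were of CYC7 (exact 95% binomial interval 10.8% to 19.5%, which like all read intervals here covers counting error only). In the late window CYC7 was at 148 RPM as a geometric mean, 17.9 times its 0 min level, while CYC1 was at 63.0 RPM. CYC7 then made up 68.6% ± 11.4 (SD, n = 6) of the pair's reads.

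CYC7 was at 32.3 RPM at 15 min, 20.3 at 30 min, 19.3 at 60 min, 21.2 at 105 min and 15.1 at 120 min. It was still at 20.4 RPM at 135 min and 26.0 RPM at 150 min. All of these lay above the 0 min value, and all lay below the lowest late value. At 15, 60 and 120 min only values from 29.4, 17.5 and 9.46 RPM were listed, each above the 0 min level. A listed value could not have been lower than 0 min there, and CYC7 had 11 reads at 15 and at 60 min. The next library, at 165 min, had 125 RPM (194 reads, against 40 at 150 min). This 4.82-fold step in 15 min was the second largest among 5181 genes listed in both libraries, a comparison made after the value was seen.

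From 165 min on CYC7 stayed high, at 158 RPM at 180 min, 218 at 195 min, 134 at 225 min and 121 at 240 min. In the 7 late libraries it ran from 86.8 RPM at 255 min to 237 RPM at 285 min, with a median of 155 RPM. Late minus early, the log2 difference was 2.82, a 7.06-fold difference, against a pooled SD of 0.51 within the windows. Every late library exceeded every early one, although at 360 min only values from 58.9 RPM were listed, which is above every early value.

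CYC1, the aerobic isoform, varied much less. It was at 47.0 RPM at 15 min, 66.1 at 30 min, 56.1 at 60 min, 74.2 at 105 min and 67.2 at 120 min. The middle window ran from 69.9 to 110 RPM (median 79.6, 6 libraries listing it), and the late window from 41.8 RPM at 345 min to 101 RPM at 270 min (median 63.0, 6 libraries). It was unlisted at 195 and 360 min, where only values above 51.8 and 58.9 RPM were listed. The late and early libraries overlapped. Late minus early the log2 difference was 0.04, against a pooled SD of 0.43, and it turned to -0.34 with the libraries centred on their medians.

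The within-pair ratio does not depend on how libraries were scaled. Per coding length, the log2 ratio of CYC7 to CYC1 was -2.58 at 0 min, -1.60 ± 0.61 (SD, n = 5) in the early window and 1.13 ± 0.76 (SD, n = 6) in the late window. CYC1 exceeded CYC7 in every library that listed both up to 150 min. CYC7 exceeded CYC1 in all such libraries from 165 min on, except at 255 min, where each had 56 reads. The counting interval of the ratio included equality at 15, 225 and 255 min. At 195 and 360 min CYC1 had fewer than 10 reads. Counting error aside, CYC7 was there at least 4.05 and 2.99 times as high per coding length. The sum of the pair was 56.1 RPM at 0 min and 221 ± 70.0 RPM (SD, n = 6) in the late window.

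**Figure D1:**
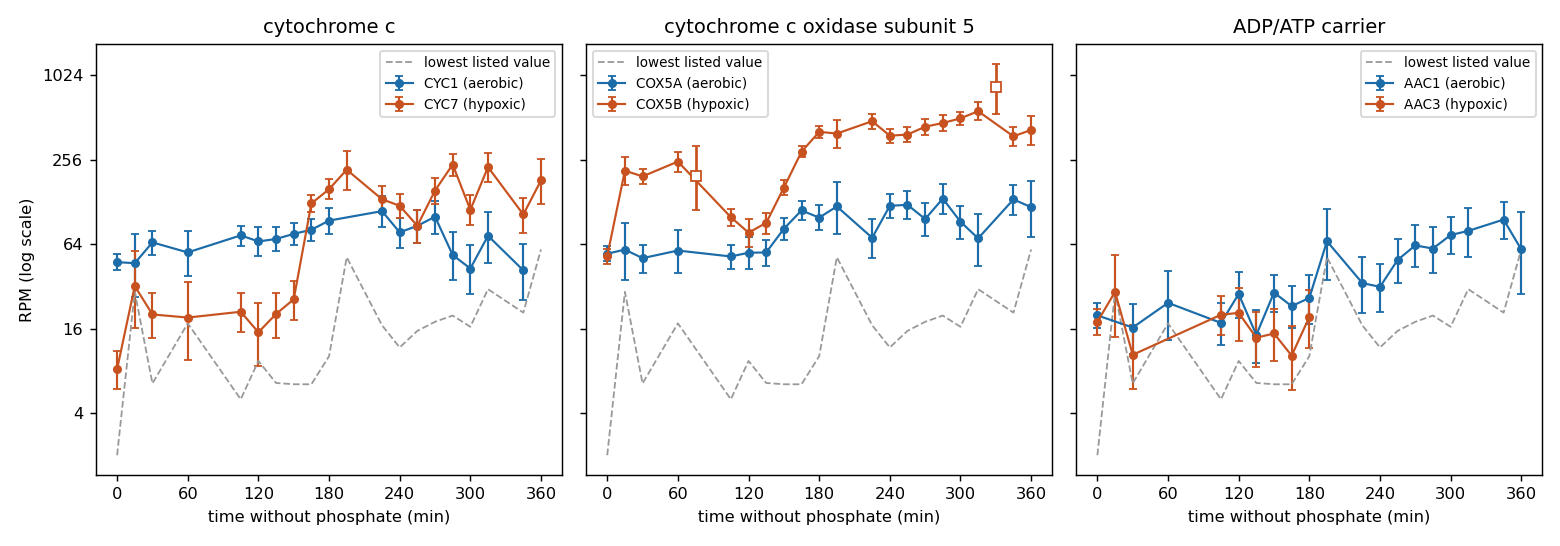
Level in RPM (log scale) of the aerobic (blue) and hypoxic (orange) isoform of each pair against time without phosphate in minutes, with exact 95% counting intervals, lines joining listed values in the deeper libraries, and open squares for libraries under 100000 reads. The dashed line is the lowest value a deeper library lists; CYC7 stepped from 26.0 to 125 RPM between 150 and 165 min, COX5B had high values at 15 to 60 min and again from 165 min, and AAC3 has no point after 180 min.

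Subunit 5 of cytochrome c oxidase is encoded by COX5A or COX5B, and an enzyme holds 1 or the other. At 0 min the genes were level, at 54.9 RPM for COX5A and 52.9 RPM for COX5B (272 and 262 reads). In the late window COX5B was at 448 RPM, 8.47 times its 0 min level, and COX5A at 108 RPM, 1.96 times. COX5B then made up 80.1% ± 5.3 (SD, n = 7) of the reads of the pair, against 49.1% (exact 95% binomial interval 44.8% to 53.4%) at 0 min.

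COX5B had 2 high phases. It was at 214 RPM at 15 min (73 reads, counting interval 168 to 270), 195 RPM at 30 min (298 reads) and 249 RPM at 60 min (142 reads). It then stood at 99.9 RPM at 105 min, 77.6 at 120 min and 91.0 at 135 min, before 162 RPM at 150 min, 292 at 165 min and 405 at 180 min. The 3 libraries of the first hour were all above 0 min and above all 3 libraries of 105 to 135 min, and their geometric mean, 218 RPM, was 4.13 times the 0 min value and 2.45 times that of 105 to 135 min.

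The early window therefore holds a high and a low phase of COX5B, which its SD of 0.74 on the log2 scale records. Of 3726 genes listed in these 7 libraries, 32, or 0.859%, were at least 2-fold above both 0 min and 105 to 135 min in the first hour, with times and fold chosen after the values were seen. Neither COX5A (1.02 times its 0 min level in the first hour) nor CYC1 (1.17 times) was among them. CYC7 was 2.82 times its 0 min level in the first hour, and 1.25 times its own level of 105 to 135 min. Its values at 15 and 60 min had 11 reads each, in libraries that listed nothing as low as its 0 min level. At 30 min, where values from 6.55 RPM were listed, CYC7 was at 20.3 RPM (31 reads) against 8.28 RPM at 0 min.

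From 195 min on COX5B ranged from 376 RPM at 345 min to 568.1 RPM at 315 min in the deeper libraries, with a late median of 441 RPM. Late minus early the log2 difference was 1.56, a 2.95-fold difference, against a pooled SD of 0.50, and it ran from 1.32 to 1.74 when 1 early or late library was left out. COX5A was between 51.1 and 58.8 RPM in all 5 early libraries and at 56.1 RPM at 135 min. It was at 82.7 RPM at 150 min and 112 RPM at 165 min, and in the late window it ran from 70.6 to 136 RPM with a median of 118 RPM. Its late minus early log2 difference was 0.96 (pooled SD 0.27), and 0.57 with libraries centred on their medians. For both genes every late library exceeded every early one. For COX5A this could not have been otherwise at 360 min, where only values from 58.9 RPM were listed.

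Per coding length the log2 ratio of COX5B to COX5A was -0.04 at 0 min, between 1.89 and 2.12 in the libraries of the first hour, 0.49 at 120 min, and 2.08 ± 0.53 (SD, n = 7) in the late window. The highest single ratio was 8.15 at 315 min (185 and 23 reads, 95% counting interval 5.27 to 13.2). COX5B was above COX5A in every library without phosphate that listed both, although at 120 min the counting interval of the ratio, 0.996 to 2.002, included equality. The early to late change of the ratio was 1.51-fold, a log2 difference of 0.60 that its pooled SD of 0.61 exceeded, and the early window holds the high first hour.

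**Figure D2:**
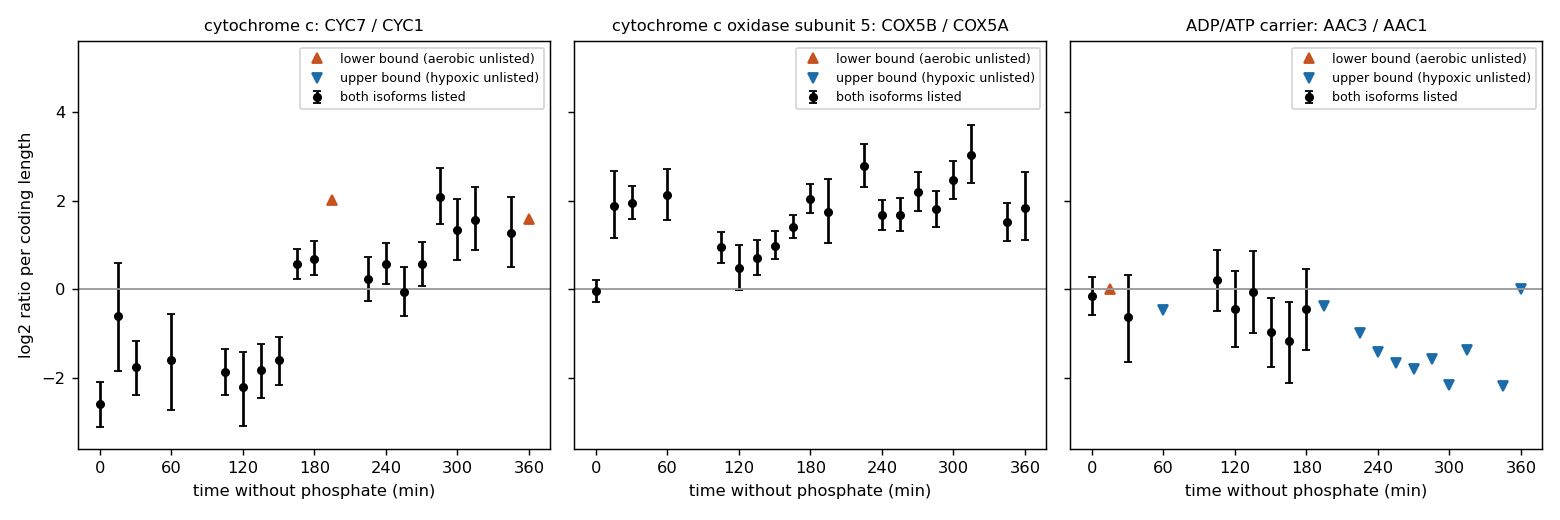
Log2 ratio of hypoxic to aerobic isoform per coding length against time without phosphate in minutes, 1 panel a pair, deeper libraries only; bars are exact 95% counting intervals and triangles mark bounds where 1 isoform had fewer than 10 reads. The cytochrome c ratio crosses 0 between 150 and 165 min, the subunit 5 ratio is near 0 at 0 min and above it in every later library, and the carrier ratio has upper bounds as low as -2.19. The bounds leave out counting error.

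In the ADP/ATP carrier pair it was the aerobic isoform, AAC1, that stood higher in the late window. At 0 min the genes were at 20.0 RPM for AAC1 and 18.0 RPM for AAC3 (99 and 89 reads). In the late window AAC1 was at 67.4 RPM, 3.37 times its 0 min level, and AAC3 was listed in none of the 7 libraries.

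AAC1 was at 16.4 RPM at 30 min, 24.5 at 60 min, 17.7 at 105 min and 28.4 at 120 min, and was unlisted at 15 min, below 29.4 RPM. The middle window ran from 14.5 RPM at 135 min to 67.4 RPM at 195 min (13 reads, counting interval 35.9 to 115) with a median of 29.1 RPM. The late window ran from 49.6 RPM at 255 min to 96.1 RPM at 345 min with a median of 62.9 RPM. All late libraries lay above all early ones that listed it. At 315 and 360 min, however, only values from 30.7 and 58.9 RPM were listed, above every listed early value, so AAC1 could not have overlapped there. Late minus early the log2 difference was 1.67 (pooled SD 0.34), and 1.25 with libraries centred on their medians.

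AAC3, the hypoxic carrier, was at 29.4 RPM at 15 min (10 reads), 10.5 at 30 min, 20.2 at 105 min and 20.8 at 120 min. It was at 13.8 RPM at 135 min, 14.9 at 150 min, 10.3 at 165 min and 19.4 at 180 min. From 195 min on no library listed it. In 5 of the 11 deeper libraries without it, at 60, 225, 240, 255 and 300 min, the lowest listed value was below the 0 min level of AAC3, so that AAC3 lay below that level there. At that level it would have had 10.2 to 15.2 reads in them, so in any 1 of the 5 the shortfall is within counting error. At the other 6 the depth could not show whether AAC3 differed from 0 min.

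The carriers were also compared within each library. AAC3 and AAC1 had a log2 ratio of -0.14 at 0 min (ratio 0.905, 95% counting interval 0.672 to 1.22), -0.29 ± 0.44 (SD, n = 3) in the early libraries that listed both, and -0.66 ± 0.50 (SD, n = 4) in such middle libraries. In 6 of the 7 late libraries AAC1 was 2.58 to 4.57 times the 10-read limit, under which AAC3 lay, per coding length. The bound was lowest at 315 min (26 reads of AAC1) and highest at 345 min (46 reads of AAC1). These bounds take the counted reads as they are and leave out the counting error of both genes. At 360 min, the shallowest of them, AAC1 itself had 10 reads and gave no such bound. PET9, the main carrier, was above both in every library that listed them. It was at 223 RPM at 0 min, between 189 and 238 RPM in the early window, and between 293 and 471 RPM in the late window, where it was called higher (limma log2 change 0.92 ± 0.17 SE, n = 7 and 5, adjusted p = 1.01e-04).

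Across the 6 genes the order of levels per kilobase of coding sequence differed between 0 min and the late window. At 0 min it was CYC1 (145 RPM per kb), COX5A (119), COX5B (116), CYC7 (24.2), AAC1 (21.5) and AAC3 (19.4). COX5A and COX5B, and likewise CYC7, AAC1 and AAC3, differed there by less than the spread of these genes within a window. In the late window it was COX5B (982 RPM per kb), CYC7 (433), COX5A (233), CYC1 (191) and AAC1 (72.4), with AAC3 unlisted. Neighbours in this order were apart by more than the larger of their SDs, except COX5A and CYC1.

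The genes of the 3 pairs were alike to different degrees over the deeper libraries. Log2 levels of CYC7 and COX5B had a Pearson r of 0.91 over 20 libraries, CYC7 and COX5A 0.80, COX5A and COX5B 0.70, AAC1 and COX5B 0.73, and CYC1 and CYC7 0.30 over 18. These are descriptions of points that share libraries, depth and a common trend in time. Of 2475 genes listed in all 20 libraries, those most like CYC7 were PYK2 (r 0.97), PGM2 (0.97) and YDR133C (0.96). Those most like COX5B were YOR020W-A (0.97), GOR1 (0.97) and YDL124W (0.96), and those most like COX5A were UFO1 (0.91), VPS73 (0.89) and ERG27 (0.88). For AAC1 they were ATP3 (0.92), YMR175W-A (0.92) and SIP18 (0.92) over 19 libraries, and for CYC1 ERG4 (0.82), POL30 (0.76) and SEC53 (0.75) over 18. AAC3 was listed in 9 deeper libraries, too few for this comparison.

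To set the pairs beside the genes they work with, 10 lists were taken from general knowledge, with earlier results of these data known. Counts of called list genes are therefore descriptions and not independent tests of the lists. Over 4364 tested genes limma was run, late against early. Of these genes 42.5% were called, 34.9% higher and 7.54% lower, and their median log2 change was 0.37. With libraries centred on their medians that median became -0.02 and the calls 672 higher and 683 lower, so list medians are to be read against the median of all genes. Listed late values lay wholly above listed early ones for 20.3% of tested genes and wholly below for 5.45%. The first held for 4 of the 6 isoforms, CYC7, COX5A, COX5B and AAC1, which were chosen with these values known, so nothing is read from that count.

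Genes of other cytochrome c oxidase subunits rose. All 7 of the tested nuclear subunit genes other than subunit 5 were called higher, with a median log2 change of 1.09 against 0.37 over all genes (5 higher with libraries centred on their medians). COX12, a subunit on the outer face of the enzyme, went from 116 to 287 RPM (limma log2 change 1.30 ± 0.20 SE, n = 7 and 5, adjusted p = 1.71e-05). COX13 rose by a log2 change of 1.29, COX4 by 1.18 and COX7 by 1.09. COX4 lost its call under scaling to reads outside the ribosomal protein genes (log2 change 0.72).

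Set against these partners, COX5A and the pair as a whole behaved differently when the single 0 min library was the baseline. Late minus early, the log2 difference of COX5A, 0.96, lay within the range of these genes, 0.60 (COX6) to 1.30 (COX12). That of COX5B, 1.56, lay above it. From 0 min to the late window COX5A relative to each of the 7 other subunit genes changed between 0.564-fold (COX13) and 1.07-fold (COX6). The sum of COX5A and COX5B relative to the same genes changed between 1.497-fold (COX13) and 2.83-fold (COX6). COX5B alone was 8.47 times its 0 min level, and the 7 other genes were between 1.84 and 3.47 times theirs.

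**Figure D3:**
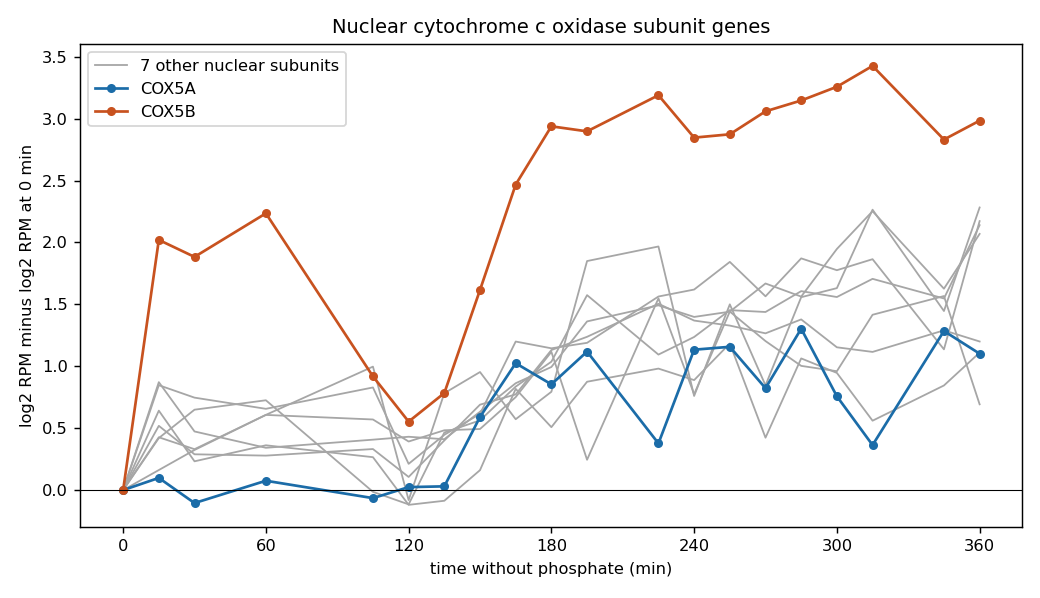
Log2 RPM minus log2 RPM at 0 min, against time without phosphate in minutes, for COX5A (blue), COX5B (orange) and 7 other nuclear cytochrome c oxidase subunit genes (grey) in the deeper libraries. COX5B lies above all other subunit genes in the first hour and from 150 min on, and COX5A runs at or below the lower edge of the grey lines in the first hour.

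Of 22 tested oxidase assembly genes 8 were called higher (median log2 change 0.58), a share near the 34.9% of all tested genes, so the count shows nothing about this list. The 4 with the largest changes were the mitochondrial translation activator PET111 (log2 change 1.28), the copper protein gene SCO2 (0.91), COX20 (0.87) and PET100 (0.71). None of these 4 kept its call under scaling to reads outside the ribosomal protein genes. Median centring left 2 of the 22 higher and 1 lower. All 8 tested genes of the bc1 complex, which hands electrons to cytochrome c, were called higher (median 1.12; 5 with median centring), led by CYT1 for cytochrome c1 (from 107 to 301 RPM, log2 change 1.49), COR1 (1.42), QCR10 (1.36) and QCR7 (1.16). Of 7 genes for cytochrome c maturation and its partners, CYT1 again among them, 5 rose (median 1.16; 5 with median centring). Among them were the heme lyase gene CYC3, which attaches heme to cytochrome c (limma log2 change 1.16 ± 0.23 SE, n = 7 and 5, adjusted p = 2.53e-04), and the lactate dehydrogenase genes DLD1 (1.38) and CYB2 (1.18), whose enzymes reduce cytochrome c.

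Of 4 tested mitochondrial nucleotide and phosphate carrier genes 3 were called higher (median 0.84; 2 with median centring). PIC2, which encodes a copper and phosphate carrier of the inner membrane, went from 33.6 to 139 RPM (limma log2 change 2.04 ± 0.38 SE, n = 7 and 5, adjusted p = 2.02e-04), followed by PET9 and the main phosphate carrier MIR1 (0.76). The MIR1 value was 0.21 with all 25 libraries and 0.37 with median centring, and not called in either.

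Of 17 other hypoxic genes 15 matched a row and 6 could be tested, with a median log2 change of 0.35 against 0.37 over all genes and -0.05 with median centring. Of these 6, 1 was called, against 42.5% of all tested genes, and 6 genes are too few to set against that share. The other 9 were listed in too few libraries or at too low a level to test. The gene called was OLE1, the fatty acid desaturase gene, which went from 186 to 693 RPM (limma log2 change 1.89 ± 0.26 SE, n = 7 and 5, adjusted p = 8.63e-06). OLE1 was at 344 RPM at 0 min and at 214, 94.9 and 142 RPM at 15, 30 and 60 min, so in these deeper libraries it was below 0 min in the hour in which COX5B was high. HEM13, a heme synthesis gene that Rox1 represses, had a log2 change of 0.35 and HMG2, a reductase gene of sterol synthesis, 0.34, and neither passed (limma, adjusted p = 0.405 and 0.36). In the first hour HEM13 was at 18.3 RPM at 30 min and 33.3 at 60 min, against 41.6 RPM at 0 min. HEM13 is counted in this list and again among the heme synthesis genes, in both comparisons below.

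ANB1, the hypoxic form of translation factor eIF5A and the neighbour of CYC1 on chromosome X, was listed at 0 min with 2.83 RPM and at 30 min with 6.56 RPM, and in no other library. Its aerobic partner HYP2 went from 2330 RPM in the early to 1495 RPM in the late window (limma log2 change -0.64 ± 0.21 SE, n = 7 and 5, adjusted p = 0.0172). For the 2 other pairs that oxygen is known to affect, the hypoxic share of reads differed between the windows by less than its SD. HMG2 made up 49.0% ± 9.0 (SD, n = 5) of HMG1 plus HMG2 in the early window and 48.8% ± 13.7 (SD, n = 5) in the late window. ARE1 made up 49.8% ± 10.7 (SD, n = 4) of ARE1 plus ARE2 in the early and 59.2% ± 9.7 (SD, n = 7) in the late window. HMG1 (log2 change 0.16), ARE1 (0.45) and ARE2 (-0.12) did not pass.

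The regulators of these genes were mostly too low to test. Of 14, 6 were tested, with a median log2 change of 0.26, and 1 was called higher, MGA2, an activator of OLE1 (limma log2 change 0.77 ± 0.20 SE, n = 7 and 5, adjusted p = 0.00257). That call was lost with median centring (0.38). HAP1 was listed in 6 libraries, at 8.07 RPM at 0 min, 12.1 at 105 min, 19.5 at 225 min, 14.8 at 240 min, 23.4 at 270 min and 25.1 at 345 min. ROX1 was listed in 14, at 13.3 RPM at 0 min, from 13.6 to 26.2 RPM in 3 early libraries, and from 21.9 to 52.2 RPM in 5 late ones. HAP4 was listed in 8, at 8.68 RPM at 0 min, 26.8 at 30 min and 10.1 at 105 min, and at 18.0 and 21.9 RPM at 270 and 285 min. The late values of HAP1 and most late values of ROX1 were above their early ones. Since values under 10 reads were unlisted, and the late libraries are shallower than 0 min, these listed values do not show whether the levels changed. None of 6 tested heme synthesis genes passed late against early with limma, and 0 had an unadjusted p under 0.05. Over all 4364 tested genes 42.5% were called, and 2224 had an unadjusted limma p under 0.05. As with the other hypoxic genes, 6 regulators or 6 heme synthesis genes are too few to set against these shares.

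**Figure D4:**
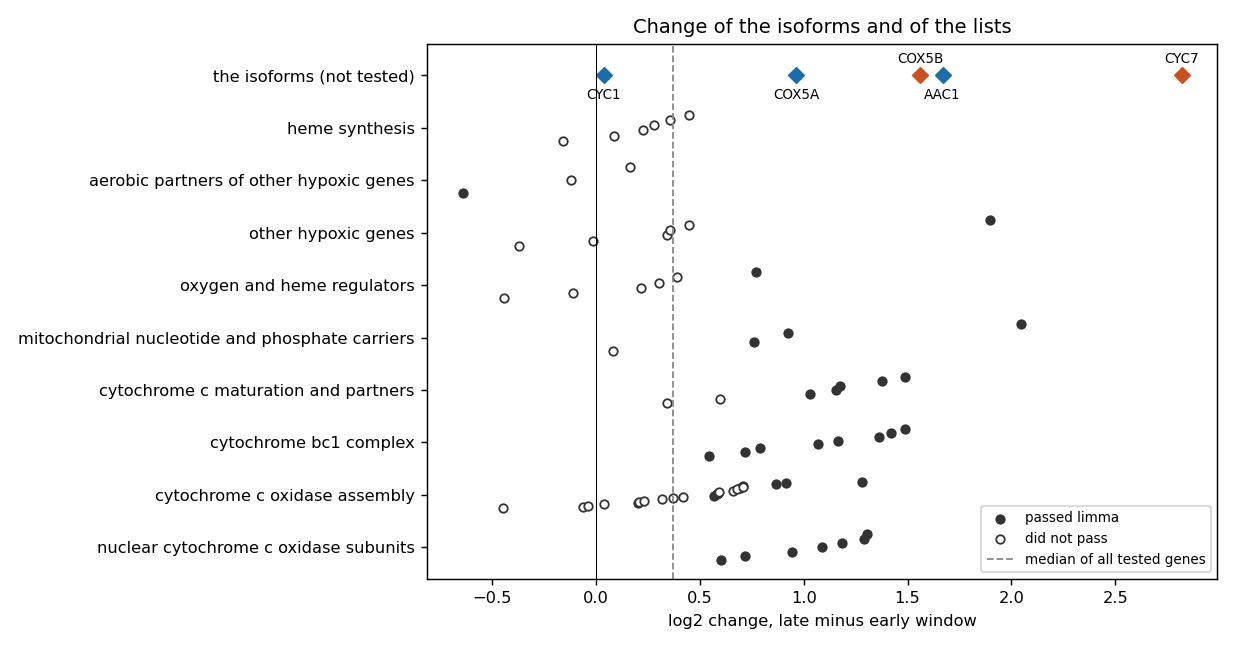
Log2 change, late minus early window, of each tested gene of the lists (filled where limma adjusted p was under 0.05, open otherwise) and of 5 isoforms as diamonds (blue aerobic, orange hypoxic), AAC3 having no late value. The dashed line is the median of all tested genes, 0.37; CYC7 at 2.82 lies to the right of every list gene, and CYC1 at 0.04 (-0.34 with median centring) to the left of all respiratory subunit genes.

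Against 0 min the late window gave fewer calls, the 0 min group being 1 library assumed to vary like the windows, which cannot be checked here. There 18.5% of the tested genes were called higher and 5.71% lower, with a median log2 change of 0.46. The comparison shares its late libraries with the one above. Higher were 6 of 7 oxidase subunit, 6 of 22 assembly, 5 of 8 bc1, 4 of 7 cytochrome c partner and 1 of 4 carrier genes, the last being PIC2 (limma log2 change 3.20 ± 0.69 SE, n = 7 and 1, adjusted p = 0.00306). None of the 6 tested regulators, 6 other hypoxic genes, 3 aerobic partners or 6 heme synthesis genes passed with limma, and 1 of them, OLE1 (log2 change 1.01), had an unadjusted p under 0.05. PET9 had a log2 change of 0.79 (limma, adjusted p = 0.0597). The 8 mitochondrially encoded genes, COX1, COX2 and COX3 of the same oxidase among them, had no listed value in any library, so the mitochondrial side of the enzyme could not be followed.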

How the data were processed

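RNA was sequenced from 25 yeast libraries, 1 a time point. Per the submitters' processing notes reads were aligned with Bowtie to R64; the sources used here name no version, counter or strand setting. The authors deposited log2 values, which on the linear scale sum to 1000000 in each library, and genes under 10 reads have no value. The lowest value of a library was taken as 10 reads, and at least 93.4% of values in each deeper library were then whole reads within 0.01. No subtraction of the first time point was found in the columns. Of 6701 rows 51 had no gene name, and 5965 of 6650 named rows matched the R64 annotation.

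The members and lists were chosen with earlier results of these data known, and so was the limit of 100000 reads for a library to enter means and tests. Genes needed a mean of 10 RPM, a value at 0 min and in 4 libraries of each window. limma 3.58.1 in R 4.3.3 fitted the windows, with trend and robust settings, ignoring unlisted values. Benjamini-Hochberg adjustment was over 4364 genes at 0.05. A run on simulated data used independent noise without trends inside a window, so it does not check the fit for serial samples. Named were the 6 members, a fixed set of oxygen genes, up to 4 called genes a list by size of change, and the 3 genes most correlated with each member. Sequences came from the RefSeq R64 genome, aligned with Biopython 1.88 in Python 3.11.15. Alternatives were other scalings, all 25 libraries, no minimum level, unlisted values at 5 reads, and each early or late library left out.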

Additional observations from a re-analysis of the deposited data

Results flagged for a closer look

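COX5B was the 1 isoform listed in libraries left out of the windows for their depth, and it stood above its 0 min level of 52.9 RPM in both. At 75 min it was at 197 RPM (16 reads, counting interval 113 to 320), and at 330 min at 840 RPM (25 reads, counting interval 544 to 1241). The value of 10 reads, below which nothing was listed, was 123 and 336 RPM in those libraries. None of 24 sets of window values of the isoforms and their ratios had a library set far apart from the rest by Dixon's criterion.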

How the results depend on the processing

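Scaling changed the split of calls most. Late against early, 1524 genes were higher and 329 lower, against 672 and 683 with libraries centred on their medians and 571 and 797 when scaled to reads outside ribosomal protein genes. Late against 0 min, 809 higher and 249 lower became 365 and 441, and 374 and 381. The same scalings gave late minus early log2 differences of 0.57 and 0.50 for COX5A and 1.25 and 1.1999 for AAC1, and the second gave -0.43 for CYC1. Those of CYC7 (2.43 and 2.35) and COX5B (1.17 and 1.10) moved by less than their SD.

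Leaving out 1 early or late library gave 1053 to 1516 genes higher and 296 to 358 lower late against early, and 684 to 859 and 224 to 284 against 0 min. The differences then ran from -0.10 to 0.16 for CYC1, 2.70 to 2.97 for CYC7, 0.91 to 1.07 for COX5A, 1.32 to 1.74 for COX5B and 1.54 to 1.81 for AAC1. The ratio changes ran from 2.54 to 2.98 for cytochrome c and 0.35 to 0.76 for subunit 5. AAC3 had no late value and hence no difference. Of 418 values of 26 named genes under the alternatives late against early, 15 lost a call and 0 reversed; of as many late against 0 min, 19 lost a call, 3 gained one and 0 reversed. Fewer than 10 reads were never listed, which limits AAC3, HAP1, ROX1 and ANB1. No paired analysis was possible because the data were a single time course with 1 library a time point.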
